A study of Arabidopsis thaliana with 16 samples.

Results

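The genes described here are 9 Arabidopsis enzymes of the aspartate family and of branched-chain amino acid synthesis, measured in rosette leaves of plants flown on the SJ-10 satellite and of plants kept on the ground. They were listed by name for their place in the pathway, with earlier results of these data known, so that their counts below are a description and no blind test. Each is read by 1 probe set that names no other gene, so that they make up 9 of the 23616 genes, and 9 of the 22746 probe sets other than controls, on the ATH1 array. The 16 arrays form 8 groups of 2. WT is the Columbia ecotype, and FG is a transgenic line in the same ecotype, obtained by crossing, that carries FT, the mobile flowering signal, and the reporter GFP, each under the heat-inducible HSP17.4 promoter. Both genotypes were grown on vermiculite under long days (LD, 16 h light and 8 h dark) or short days (SD, 8 h light and 16 h dark). They then spent 12 days and 15 h in orbit (sp) or in a matching unit on the ground (gr), which gives WT-LD-sp, WT-LD-gr, FG-LD-sp, FG-LD-gr, WT-SD-sp, WT-SD-gr, FG-SD-sp and FG-SD-gr. The SD plants of both genotypes, in space and on the ground, were also heated early in the flight and the LD plants were not, so that every comparison of daylengths includes the heating. There was 1 unit in space and 1 on the ground, so that flight cannot be told apart from the unit, the landing or the hour and handling of harvest. Each treatment had 4 leaves, and p-values measure only the spread between these arrays.

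In plants, lysine, threonine, methionine and isoleucine all draw their carbon from aspartate, and most of these steps take place in the chloroplast. Aspartate kinase opens the pathway, homoserine dehydrogenase leads to the branch point where threonine synthase and cystathionine gamma-synthase compete for the same substrate, and threonine deaminase turns threonine towards isoleucine. Ketol-acid reductoisomerase and dihydroxyacid dehydratase then serve isoleucine and valine alike, isopropylmalate synthase commits carbon to leucine, and a branched-chain aminotransferase makes the last step. Several of these enzymes are restrained by their own end products.

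Values are MAS 5.0 signals, and each array was scaled by the authors to the same trimmed mean. A detection call of present, marginal or absent stands beside each. Signals under 75 were raised to 75 before the tests, and calls needed at least 2-fold and, over 14286 tested probe sets, a limma p under 0.05 after Benjamini-Hochberg adjustment. The tested probe sets had both arrays of at least 1 group above 75, which AKHSDH1 met in space groups only. All 9 genes were among them, and 7 of the 9 had a present call on all 16 arrays. The exceptions were AKHSDH1 and OMR1, each with a present call on 8 of 8 space arrays and on 3 of 8 ground arrays. All 9 carried a chloroplast annotation, against 16.3% of the 22560 probe sets that name a gene.

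The arrays in space and on the ground also differed as wholes. Present calls ran from 12560 to 13722 in space and from 11759 to 13042 on the ground (exact permutation test, 2-sided, 8 against 8 arrays, p = 0.00031), and the spike-in controls averaged 11.4 in space and 11.9 on the ground in log2 signal (exact p = 0.00016). The 3′ minus 5′ difference in log2 signal, a sign of RNA quality, was lower in space for both GAPDH probe pairs (0.65 against 1.43, exact p = 0.00047, and -0.05 against 0.17, exact p = 0.0406). For actin it was 1.23 against 1.72 with 1 pair of probe sets (exact p = 0.00062) and 3.30 against 3.48 with the other (exact p = 0.165). The summed signal of 4 leaf mesophyll markers ran from 40248 to 79322 in space and from 9957 to 56406 on the ground (exact p = 0.0028), and all 4 had present calls on all 16 arrays. Their median log2 fold change of space against ground was 1.64 in WT and 1.41 in FG under LD. Under SD it was 0.28 in WT and 1.61 in FG. Root markers (summed signal 113 to 268 in space and 102 to 376 on the ground, exact p = 0.945), flower organ markers (84.3 to 596 and 78.9 to 714, exact p = 0.826) and guard cell markers (206 to 754 and 224 to 742, exact p = 0.285) had overlapping ranges. Of 5 root markers, PIN2, TIP2;3 and EXPA7 had no present call on any array, PYK10 had one on 2 space and 3 ground arrays and COBL9 on 3 and 1. Of 5 flower organ markers, AP3, SEP1 and SEP3 had none and AG had one on 1 ground array, but PI was present on 8 space and 7 ground arrays, with signals from 47.5 to 654 and a log2 difference of 2.01 ± 0.61 in FG under SD that was not called (adjusted p = 0.147). FT itself was present on 4 of 4 FG ground arrays but on 2 of 4 FG space arrays, both under SD, and on none of the 8 WT arrays. The part of mesophyll share, RNA quality or array scale in the results below was not tested. In whole leaves, fewer cells of a type and less RNA per cell cannot be told apart.

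Under LD, the entry enzyme AKHSDH2, threonine deaminase and the branched-chain aminotransferase were higher in space in both genotypes while threonine synthase was lower. In WT, AKHSDH1, AKHSDH2, OMR1 and BCAT3 rose and TS1 fell, so that 4 of 9 genes were called higher and 1 lower, where 10.9% of all tested probe sets were called higher and 5.79% lower. AKHSDH1 was tested only through its space groups, so its call adds no support to the count. In FG, AKHSDH2, OMR1, DHAD and BCAT3 rose and TS1 fell, again 4 and 1 of 9, against 9.46% and 4.49% of all tested. Of these, 4 genes were called in the same direction in both genotypes, namely AKHSDH2, TS1, OMR1 and BCAT3. The median log2 fold change of the 9 genes was 1.64 in WT and 1.19 in FG, and that of all tested probe sets 0.09 and 0.07. CGS1, KARI and IPMS1 were called in neither genotype.

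**Figure D1:**
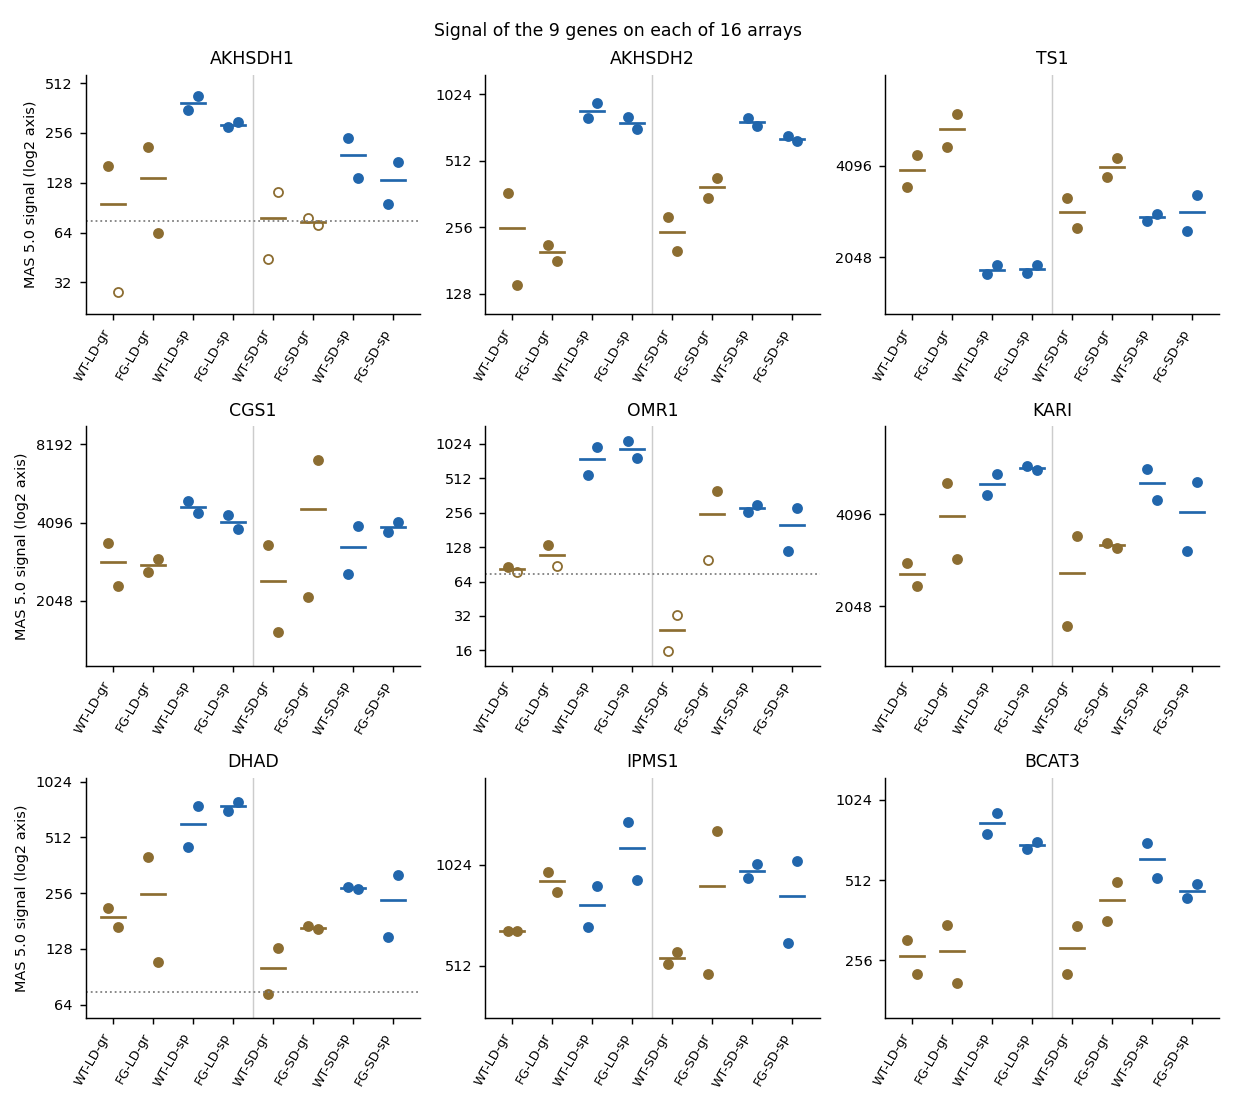
Signal of each of the 9 genes (log2 axis) on the 16 arrays, with ground groups in brown and space groups in blue, LD left and SD right of the grey line. Points are single arrays, filled where the call was present, short lines are group means (n = 2) and the dotted line is the floor of 75. The LD space arrays stand apart from the LD ground arrays in 7 of 9 panels, upwards in 6 (22.0% of all tested probe sets) and downwards for TS1 (13.2%). AKHSDH1, among the 6, was tested only through its space groups.

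AKHSDH1 (AT1G31230) and AKHSDH2 (AT4G19710) encode bifunctional aspartate kinase and homoserine dehydrogenase enzymes, which open the pathway and also make homoserine. AKHSDH2 was the only member whose 8 space arrays all lay above its 8 ground arrays, which was so for 3.11% of all tested probe sets. Under LD its signals were 797 and 933 in WT-LD-sp, 807 and 712 in FG-LD-sp, 368 and 140 in WT-LD-gr, and 213 and 181 in FG-LD-gr. Under SD they were 798 and 737 in WT-SD-sp, 663 and 630 in FG-SD-sp, 286 and 201 in WT-SD-gr, and 347 and 430 in FG-SD-gr. No ground array of either genotype or daylength reached the lowest space array. The log2 fold change under LD was 1.93 ± 0.38 (SE) in WT (adjusted p = 0.0069) and 1.95 ± 0.38 in FG (adjusted p = 0.0083). Under SD it was 1.68 ± 0.38 in WT (adjusted p = 0.0511) and 0.74 ± 0.38 in FG (adjusted p = 0.377), neither of them called, though the WT value was called without either WT-LD-gr array (1.68, adjusted p = 0.0148). The WT call under LD was lost without WT-LD-sp replicate 2 (1.81, adjusted p = 0.0609). In FG it was lost without FG-LD-gr replicate 2 (1.83, adjusted p = 0.0604), FG-LD-sp replicate 1 (1.86, adjusted p = 0.0603) or FG-LD-sp replicate 2 (2.04, adjusted p = 0.0521).

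AKHSDH1 gave signals of 354 and 427 in WT-LD-sp, 276 and 298 in FG-LD-sp, 162 and 27.9 in WT-LD-gr, and 211 and 63.8 in FG-LD-gr. Under SD it gave 237 and 137 in WT-SD-sp and 95.8 and 170 in FG-SD-sp, and no ground array had a present call (44.2 and 113 in WT-SD-gr, 78.2 and 71.1 in FG-SD-gr). The LD space arrays were the highest and did not overlap with the LD ground arrays, nor with the SD space arrays. The rise in WT under LD was 1.82 ± 0.52 (adjusted p = 0.0336), and in FG the value was 1.19 ± 0.52 (adjusted p = 0.145). Under SD the log2 differences were at least 0.97 in WT (adjusted p = 0.332) and at least 0.74 in FG (adjusted p = 0.546), since the ground arrays gave only a bound. The WT call was lost without WT-LD-gr replicate 2 (1.26, adjusted p = 0.203), WT-LD-sp replicate 1 (1.95, adjusted p = 0.101), WT-LD-sp replicate 2 (1.68, adjusted p = 0.167) or either FG-LD-sp array (1.82, adjusted p = 0.0510), and it was gained in FG without FG-LD-gr replicate 1 (1.94, adjusted p = 0.0392).

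TS1 (AT4G29840), threonine synthase, was the only member that fell. Its signals were 1797 and 1929 in WT-LD-sp and 1816 and 1928 in FG-LD-sp, against 3493 and 4453 in WT-LD-gr and 4725 and 6059 in FG-LD-gr. Under SD they were 2697 and 2850 in WT-SD-sp, 2503 and 3288 in FG-SD-sp, 3211 and 2561 in WT-SD-gr, and 3769 and 4354 in FG-SD-gr. The 4 LD space arrays lay within a narrow band below all other arrays. Under SD the space and ground ranges overlapped in WT and over both genotypes, while in FG both space arrays lay below both ground arrays. The log2 fold change under LD was -1.08 ± 0.23 in WT (adjusted p = 0.0104) and -1.52 ± 0.23 in FG (adjusted p = 0.0028), and under SD it was -0.05 ± 0.23 in WT (adjusted p = 0.955) and -0.50 ± 0.23 in FG (adjusted p = 0.333). The FG call held without any 1 array. The WT call was lost without WT-LD-gr replicate 2 (-0.91, adjusted p = 0.0662), WT-LD-sp replicate 1 (-1.03, adjusted p = 0.0565) or WT-LD-sp replicate 2 (-1.13, adjusted p = 0.0543), and with scaling to the spike-in controls it was -0.49 (adjusted p = 0.147).

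CGS1 (AT3G01120), cystathionine gamma-synthase, takes the same branch-point substrate as TS1 towards methionine. Its signals were 4951 and 4462 in WT-LD-sp, 4395 and 3867 in FG-LD-sp, 3425 and 2335 in WT-LD-gr, and 2651 and 2965 in FG-LD-gr. Under SD they were 2589 and 3988 in WT-SD-sp, 3765 and 4130 in FG-SD-sp, 3350 and 1556 in WT-SD-gr, and 2123 and 7108 in FG-SD-gr. The LD space arrays all lay above the LD ground arrays, as for 22.0% of all tested probe sets. The differences of 0.73 ± 0.51 in WT (adjusted p = 0.34) and 0.56 ± 0.51 in FG (adjusted p = 0.5) were not called. Their SE comes from a spread estimated over all 8 groups, the SD arrays included. FG-SD-gr replicate 2 was the highest of the 16 arrays and its partner among the lowest.

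OMR1 (AT3G10050), threonine deaminase, the first enzyme of the isoleucine branch, had the largest rise of the 9 under LD in both genotypes. Its signals were 544 and 958 in WT-LD-sp and 1079 and 766 in FG-LD-sp, against 86.6 and 76.9 in WT-LD-gr and 133 and 86.8 in FG-LD-gr. Under SD they were 261 and 297 in WT-SD-sp, 118 and 280 in FG-SD-sp, 15.8 and 32.9 in WT-SD-gr, and 99.2 and 397 in FG-SD-gr. The LD space arrays stood above every other array, and FG-SD-gr replicate 2 was again the highest ground array. The log2 fold change under LD was 3.14 ± 0.59 in WT, or 8.84-fold (adjusted p = 0.0059), and 3.08 ± 0.59 in FG, or 8.47-fold (adjusted p = 0.0081). Under SD the WT value was at least 1.89, since neither ground array had a present call (adjusted p = 0.117), and the FG value was -0.13 ± 0.59 (adjusted p = 0.979). The call under LD was lost in WT without WT-LD-sp replicate 2 (2.74, adjusted p = 0.0632), and in FG without FG-LD-gr replicate 2 (2.78, adjusted p = 0.064) or FG-LD-sp replicate 1 (2.84, adjusted p = 0.0644). In WT under SD it was gained without either FG-SD-gr array (1.89, adjusted p = 0.0491).

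KARI (AT3G58610) and DHAD (AT3G23940) are ketol-acid reductoisomerase and dihydroxyacid dehydratase, successive steps shared by isoleucine and valine. DHAD gave 455 and 752 in WT-LD-sp, 713 and 790 in FG-LD-sp, 212 and 167 in WT-LD-gr, and 398 and 108 in FG-LD-gr. Under SD it gave 274 and 271 in WT-SD-sp, 149 and 320 in FG-SD-sp, 73.3 and 129 in WT-SD-gr, and 170 and 164 in FG-SD-gr. Its LD space arrays lay above its LD ground arrays and above its SD space arrays. The log2 fold change under LD was 1.85 ± 0.55 in FG (adjusted p = 0.0451) and 1.64 ± 0.55 in WT, which missed the threshold (adjusted p = 0.0613). The FG call was the least steady among those under LD, lost when any 1 of 11 of the 16 arrays was left out, with the value falling to 0.91 without FG-LD-gr replicate 2 (adjusted p = 0.302). It was also lost without FG-LD-sp replicate 1 (1.93, adjusted p = 0.148) or replicate 2 (1.78, adjusted p = 0.192), and without either array of WT-LD-gr, FG-SD-gr, WT-LD-sp and WT-SD-sp, which left the value at 1.85 with adjusted p from 0.0553 to 0.0674. The WT value was called without either FG-LD-gr array (1.64, adjusted p = 0.0195). Under SD the values were 1.47 ± 0.55 in WT (adjusted p = 0.179) and 0.39 ± 0.55 in FG (adjusted p = 0.812).

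KARI signals ran from 4717 to 5860 on the LD space arrays and from 2382 to 5164 on the LD ground arrays, and from 3100 to 5765 and 1770 to 3481 under SD. With WT and FG pooled, the space and ground ranges overlapped at both daylengths. Within WT, the space arrays lay above the ground arrays under LD (4717 to 5515 against 2382 to 2832). They also did so under SD (4552 to 5765 against 1770 to 3481). Within FG, they did so under LD (5712 to 5860 against 2920 to 5164). Under SD the FG ranges overlapped (3100 to 5216 and 3174 to 3307). The log2 differences were 0.97 ± 0.37 in WT (adjusted p = 0.0914) and 0.58 ± 0.37 in FG (adjusted p = 0.325) under LD. Under SD they were 1.05 ± 0.37 in WT (adjusted p = 0.16) and 0.31 ± 0.37 in FG (adjusted p = 0.762).

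IPMS1 (AT1G18500), isopropylmalate synthase, starts the leucine branch, and its differences were the smallest of the 9 under LD. Signals ran from 667 to 1373 on the LD space arrays and from 650.0 to 977 on the LD ground arrays, and from 600.1 to 1049 and 484 to 1291 under SD. The log2 difference was 0.24 ± 0.42 in WT (95% interval -0.68 to 1.17, adjusted p = 0.725) and 0.31 ± 0.42 in FG (-0.62 to 1.23, adjusted p = 0.67), so that a 2-fold change in either genotype lies within the interval. BCAT3 (AT3G49680), the plastid branched-chain aminotransferase, gave 765 and 915 in WT-LD-sp, 668 and 714 in FG-LD-sp, 304 and 227 in WT-LD-gr, and 346 and 210 in FG-LD-gr. Under SD it gave 708 and 521 in WT-SD-sp, 439 and 494 in FG-SD-sp, 228 and 343 in WT-SD-gr, and 358 and 504 in FG-SD-gr. The LD space and ground arrays of BCAT3 did not overlap, and under SD those of FG did. It rose under LD by a log2 fold change of 1.67 ± 0.32 in WT (adjusted p = 0.0062) and 1.36 ± 0.32 in FG (adjusted p = 0.0183), and under SD the values were 1.12 ± 0.32 in WT (adjusted p = 0.092) and 0.13 ± 0.32 in FG (adjusted p = 0.913). The WT call was lost without WT-LD-sp replicate 2 (1.54, adjusted p = 0.057), and the FG call without FG-LD-gr replicate 2 (1.00, adjusted p = 0.134), FG-LD-sp replicate 1 (1.40, adjusted p = 0.0815) or FG-LD-sp replicate 2 (1.31, adjusted p = 0.107).

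**Figure D2:**
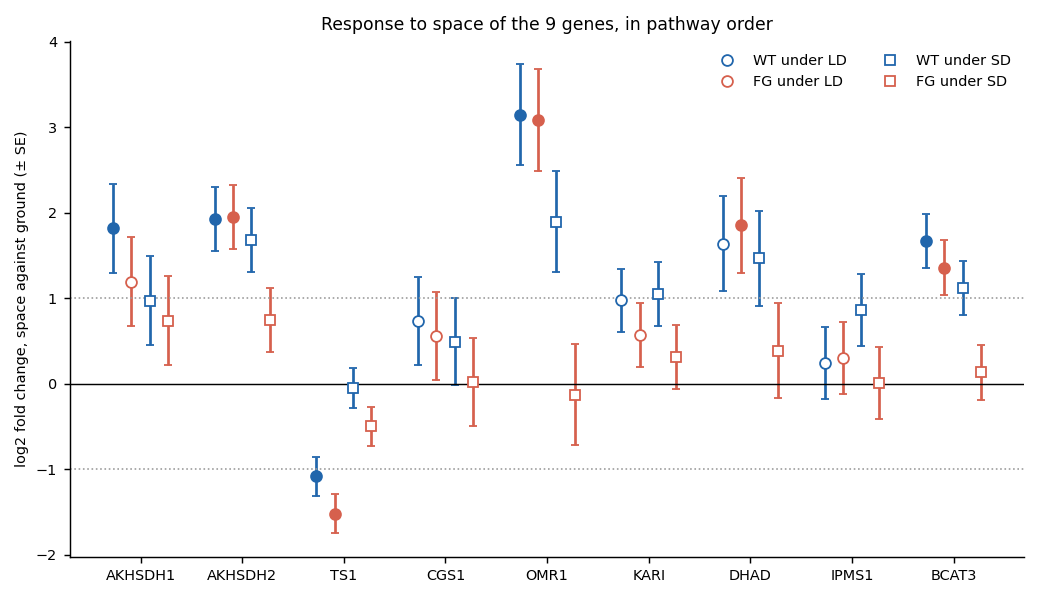
Log2 fold change of space against ground (± SE, 2 arrays against 2) for the 9 genes in pathway order, in WT (blue) and FG (red) under LD (circles) and SD (squares), with dotted lines at 2-fold. Filled symbols are called. All 10 called values are under LD, from -1.52 for TS1 to 3.14 for OMR1.

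Under SD none of the 9 genes was called in either genotype, where 1.87% of tested probe sets were called in WT and 0.917% in FG (limma). In WT 5 of the 9 had an unadjusted p under 0.05, and in FG none had. The median log2 fold change was 1.05 in WT and 0.13 in FG, against 0.11 and 0.05 over all tested probe sets. AKHSDH2 was the 1 gene whose 4 SD space arrays lay above the 4 SD ground arrays (10.7% of tested), and none lay below them (5.42%). The WT differences were positive for 8 of 9 genes and the FG differences for 7 of 9. A test of the difference between genotypes called none of the 9 under SD, with FG minus WT running from -2.02 for OMR1 to -0.23 for AKHSDH1 and every adjusted p at 1, where 0% of tested probe sets were called. Under LD the same test called none either (0.035% of tested, every adjusted p of the 9 at 1), and at an unadjusted p under 0.05 there was 1 under SD, OMR1, and 0 under LD.

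**Figure D3:**
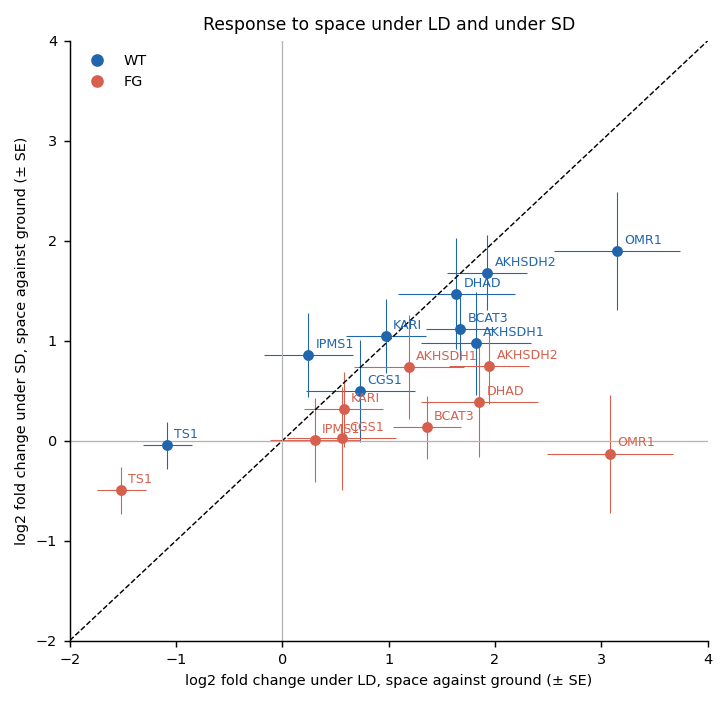
Log2 fold change of space against ground under SD (vertical) against that under LD (horizontal) for the 9 genes in WT (blue) and FG (red), ± SE, with the dashed line of equal response. OMR1 in FG lies farthest from the line, at 3.08 under LD and -0.13 under SD, and TS1 lies above the line in both genotypes.

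Whether the response to space differed between daylengths was tested for each genotype and for the mean of both. TS1 was the 1 gene called, with a response 1.03 ± 0.23 higher on the log2 scale under SD than under LD in the mean of WT and FG (adjusted p = 0.0328), where 1.70% of tested probe sets were called in that direction and 2.66% in the other. The difference was 1.03 in WT and 1.02 in FG alone, with adjusted p of 0.206 and 0.179, and none of the 9 was called in either genotype alone (0.672% and 0.84% of tested, with 1 and 4 of the 9 at an unadjusted p under 0.05). The call was lost when any 1 of 11 of the 16 arrays was left out, with values from 0.93 to 1.05 and adjusted p up to 0.0926. Those were both arrays of WT-LD-sp, FG-LD-sp and WT-SD-sp, replicate 2 of FG-LD-gr, WT-LD-gr, WT-SD-gr and FG-SD-sp, and FG-SD-gr replicate 1. OMR1 had the largest difference, -2.23 ± 0.59 in the mean (adjusted p = 0.0581) and -3.21 ± 0.84 in FG (adjusted p = 0.112), and was not called.

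SD, which includes the heating, was compared with LD within each environment. On the ground limma called none of the 9 (0.021% of tested in WT and 0% in FG), with 0 and 1 of them at an unadjusted p under 0.05, and no gene separated the 4 LD from the 4 SD ground arrays, as 1.14% and 0.721% of tested probe sets did in the direction of higher and lower under LD. In space AKHSDH1, OMR1 and DHAD were higher on all 4 LD arrays than on any SD array, as were 17.3% of tested probe sets, and TS1 was lower, as were 14.4%. None was called in space (2.78% of tested in WT and 4.15% in FG), with 2 and 4 of the 9 at an unadjusted p under 0.05, and the nearest was OMR1 in FG at -2.33 ± 0.59 (adjusted p = 0.0523), followed by DHAD in FG at -1.78 ± 0.55 (adjusted p = 0.0928). FG against WT called none of the 9 under LD or SD, on the ground or in space (0.028%, 0.014%, 0.007% and 0.014% of tested in that order for LD ground, SD ground, LD space and SD space), and 1 of the 9 had an unadjusted p under 0.05, OMR1 under SD on the ground.

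The neighbouring steps of the pathway were read from lists of the other enzymes. Of 11 tested probe sets for the other aspartate-family enzymes, 5 rose in WT under LD and 3 in FG under LD, where 10.9% and 9.46% of all tested probe sets were called higher, and none fell. Those in WT included the probe set shared by the diaminopimelate decarboxylases DAPDC1 and DAPDC2, which make lysine (1.77 ± 0.55, adjusted p = 0.0459), and DHDPS2, the first enzyme of the lysine branch (1.46 ± 0.37, adjusted p = 0.0207). Those in FG were DAPDC1 and DAPDC2 (4.28-fold, adjusted p = 0.0288), the lysine-branch aminotransferase AGD2 (1.46 ± 0.32, adjusted p = 0.0147) and DHDPS2 (1.22 ± 0.37, adjusted p = 0.0472). AGD2 was also the only pathway gene called under SD, in WT (1.57 ± 0.32, adjusted p = 0.0415), where 1.87% of tested probe sets were called. The list medians were 1.14, 0.85, 0.71 and 0.08 in WT and FG under LD and WT and FG under SD.

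Of 12 tested probe sets for the other branched-chain enzymes, of 13 on the array, 4 rose in WT under LD and 1 in FG under LD. Against the same 10.9% and 9.46% of all tested, the FG count is near the background and no result about the list. The list also holds BCAT4, an aminotransferase of methionine chain elongation, so it is not confined to branched-chain synthesis. Whether the called probe sets named below serve branched-chain synthesis or that elongation was not tested. The probe set shared by the isopropylmalate dehydrogenases IMDH1 and IMDH3 rose in both (2.27 ± 0.51, adjusted p = 0.0133, and 1.88 ± 0.51, adjusted p = 0.0333). In WT it was followed by AHASS2 (AT5G16290), a regulatory subunit of acetohydroxyacid synthase (1.70 ± 0.52, adjusted p = 0.0447), and by the isopropylmalate isomerase subunit IPMI-SSU3 (1.47 ± 0.45, adjusted p = 0.0435). The list medians were 1.05, 0.59, 0.94 and 0.05. None of 7 tested probe sets for methionine and S-adenosylmethionine synthesis was called in any of the 4 comparisons (medians 0.42, 0.45, 0.19 and -0.62), and at an unadjusted p under 0.05 there were 0, 1, 1 and 2.

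The enzymes that break these amino acids down had values of the opposite sign under LD. All 14 probe sets of that list had negative values in both genotypes under LD, with medians of -1.24 in WT and -2.29 in FG, against 0.06 in both under SD. The list also differed between genotypes under LD on the ground, where FG against WT had a median of 1.56. There 12 of 14 values were positive and none was called (0.028% of all tested). Under LD in space that median was 0.80. LKR/SDH, the bifunctional enzyme of lysine breakdown, had signals from 429 to 431 in WT-LD-sp and 4443 to 12797 in WT-LD-gr, and from 1056 to 2555 in FG-LD-sp and 14611 to 20434 in FG-LD-gr. It was the 1 gene of the 14 called in WT (-4.13 ± 0.56, adjusted p = 0.0012), a count near the 5.79% of all tested probe sets called lower, and had the largest fall of 5 called in FG (-3.39 ± 0.56, adjusted p = 0.00414), where 4.49% of all tested were called lower. The next in FG were BCDH-BETA1 (-3.07 ± 0.86, adjusted p = 0.0362) and DIN3 (-2.84 ± 0.72, adjusted p = 0.0255), subunits of the branched-chain ketoacid dehydrogenase complex, and the other two, named after their values were seen, were the leucine-breakdown carboxylase subunits MCCB (-2.79) and MCCA (-2.61).

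**Figure D4:**
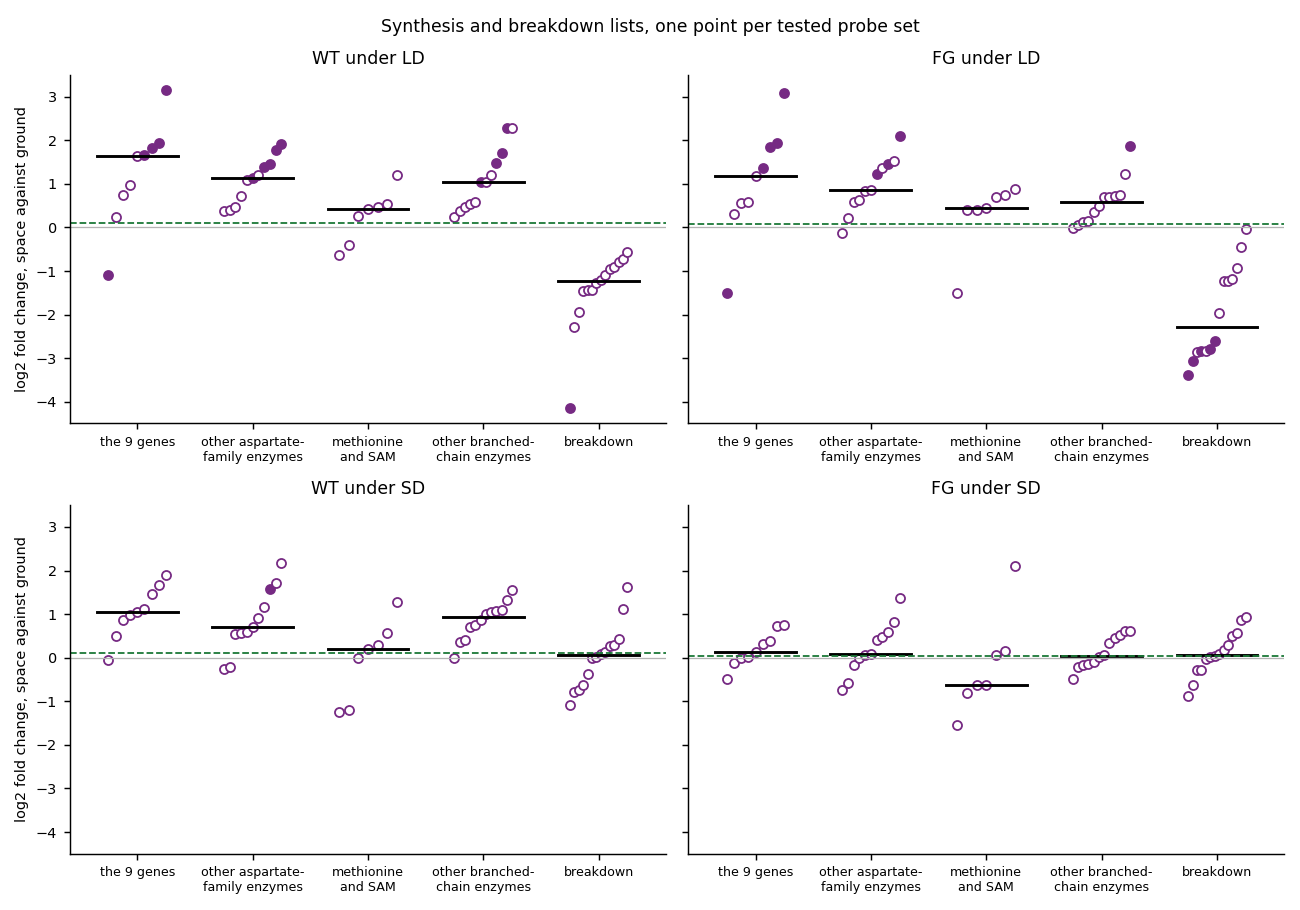
Log2 fold change of space against ground for each tested probe set of the 9 genes and of the 4 other pathway lists, in the 4 comparisons. Filled points are called, black lines are list medians and the dashed green line is the median of all tested probe sets. Under LD the synthesis lists have medians from 0.42 to 1.64 and the breakdown list -1.24 and -2.29.

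Over the 16 arrays, Pearson correlations between pairs of the 9 genes ran from -0.78 (TS1 with BCAT3) to 0.91 (AKHSDH1 with DHAD), with a median of 0.62, and TS1 was negative with all 8 others. These describe points that share group and array scale. Among all 14286 tested probe sets, the nearest fellow member ranked from 60 (BCAT3 for AKHSDH2) to 289 (OMR1 for CGS1), and 6986 for TS1. The probe set most like each gene was found by the same correlation among the 13618 that name 1 gene. It was AT3G14120 for AKHSDH1 (r = 0.97), AT4G02010, a protein kinase, for AKHSDH2 (0.96), the thioredoxin-like Clot AT5G42850 for TS1 (0.95) and the sodium antiporter SOS1 for CGS1 (0.90). For OMR1 it was AT1G10490 (0.97), for KARI the chaperonin CPN20 (0.96), for DHAD the 40S ribosomal protein AT2G32060 (0.98), for IPMS1 the pentatricopeptide protein AT1G79540 (0.87) and for BCAT3 the 60S ribosomal protein AT5G22440 (0.95).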

How the data were processed

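RNA of rosette leaves was hybridised to 16 ATH1 arrays, and groups follow the labels. The authors scanned the arrays with Command Console 4.0 and a GeneChip Scanner 3000, computed signals and detection calls with MAS 5.0 and deposited log2 signals, scaled to a trimmed mean of 500. The version of the R package was not given in the sources used here. Number limits the precision of arrays, here 2 a group.

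Values under 75 were raised to 75, and 14286 probe sets with both arrays of at least 1 group above it were tested, the 64 controls left out. Fits used R 4.3.3 and limma 3.58.1 with 1 mean per group (8 residual and 2.75 prior degrees of freedom) and 17 contrasts, and were tested on simulated data. The members and lists were chosen with earlier results of these data known. All 9 members are named, and from each list up to 3 called genes with the largest change in each direction. The values of 1 probe set that this rule takes are not reported here. Of the 3′ to 5′ control pairs, both GAPDH and both actin pairs are given, since they differ in size. Alternatives were the floor, pseudocount, filter, scaling, replicate block, array weights, series value table, arrays fitted, the methods' t-test rule and each array left out. No sequence is shown.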

Additional observations from a re-analysis of the deposited data

Results flagged for a closer look

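The response to space differed between daylengths, by the test of that difference in the mean of WT and FG, for 3 of the 53 tested probe sets of the pathway, 2 with a higher and 1 with a lower response under SD, where 1.70% and 2.66% of all tested probe sets were called. These counts are near those shares and are no result about the pathway, so the 3 are described singly. TS1 fell under LD and had a response 1.03 higher under SD on the log2 scale (± 0.23 SE, adjusted p = 0.0328, limma), a call lost when any 1 of 11 of the 16 arrays was left out. DHDPS2, of the lysine branch, rose under LD, and its response was lower under SD (-1.81 ± 0.37, adjusted p = 0.0214), with WT-SD-sp at 305 to 347 and WT-SD-gr at 324 to 434, which overlap, and FG-SD-sp at 231 to 382, below FG-SD-gr at 443 to 559.6. LKR/SDH, of lysine breakdown, fell under LD, and its response was higher under SD (3.56 ± 0.56, adjusted p = 0.0066), with WT-SD-sp at 3947 to 6873 and WT-SD-gr at 5933 to 7666, and FG-SD-sp at 7442 to 12761 and FG-SD-gr at 7716 to 12995, ranges that overlap in both genotypes. SD plants were also heated, so that daylength and heating cannot be told apart in these differences.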

How the results depend on the processing

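Of the 10 calls in space against ground, TS1 in FG alone held without any 1 array. The count of the 9 genes called ran from 0 to 6 in WT under LD (0 without WT-LD-sp replicate 2, 3 without WT-LD-gr replicate 2 or WT-LD-sp replicate 1), from 1 to 6 for the LD comparison in FG (1 if FG-LD-gr replicate 2 or FG-LD-sp replicate 1 was left out, 2 if FG-LD-sp replicate 2 was), from 0 to 1 in WT under SD, from 0 to 1 for SD against LD in FG in space, from 0 to 1 for the daylength difference in FG and from 0 to 2 for that in the mean, and stayed at 0 elsewhere. With only the arrays compared, which leaves 2 residual degrees of freedom, the counts under LD were 0 in WT and 1 in FG, AKHSDH2. By the methods' t-test rule they were 3 and 3, with 2 in WT under SD. Over 10 other limma settings that kept both arrays of each compared group, AKHSDH2 in FG under LD was called in 10 and TS1 in 9. WT under SD gave 1 with no floor, 4 with spike-in scaling and 1 with the replicate block. The daylength difference in the mean gave 0 with no floor, with log2(signal + 32) and with spike-in scaling. SD against LD in space gave 1 in WT and 2 in FG with array weights and 1 in FG with quantile normalization. Deviations of same-numbered arrays correlated from -0.28 to 0.50 over 28 pairs of groups, with a median of 0.084 and 14 pairs over 0.1. What same-numbered arrays shared is not known. The replicate block gave 5 in WT and 4 in FG under LD. Only values not called changed sign. With median centring IPMS1 was -0.10 in WT under LD, and in FG under SD IPMS1 was -0.11 and CGS1 -0.095. With quantile normalization and log2(signal + 32) IPMS1 in FG under SD was -0.060 and -0.000139. With spike-in scaling TS1 in WT under SD was 0.50 and OMR1 in FG under SD 0.27. With 1 array left out, the WT values under SD ran from -0.21 to 0.11 for TS1 and from -0.060 to 1.05 for CGS1. Those in FG under SD ran from -0.85 to 0.89 for CGS1, -1.13 to 0.87 for OMR1, -0.064 to 0.69 for KARI, -0.16 to 0.94 for DHAD, -0.70 to 0.71 for IPMS1 and -0.11 to 0.38 for BCAT3, the extremes lying with the FG-SD-gr and FG-SD-sp arrays. AKHSDH1 in WT was also lost with no floor, no filter, median or quantile scaling, and DHAD in FG with no floor, no filter, median centring and the replicate block. The cause was not tested.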
